A study of Mus musculus with 6 samples.

Results

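The genes described here are 8 components and effectors of the mitochondrial death pathway: Apaf1, Casp9, Casp2, Casp6, Xiap, Aen, Ei24 and Perp. They were taken by name, as every probe set whose platform symbol is one of them, which gave 17 of the 22690 probe sets on the array and 8 of 12393 named genes. The values come from 6 arrays of 3 mouse lung adenocarcinoma cell lines, KPR4, KPR5 and KPR8, all of C57/B6-129SvJae strain. One culture per line was exposed for 24 h to 250 nM 4-OH tamoxifen in ethanol. Per the labels this brings back p53, a transcription factor that suppresses tumours. A second culture per line had ethanol only. All cells grew in DME with 10% serum, and 100 ng of total RNA was amplified per array. Each array reads a bulk RNA sample, in which fewer cells of a type and less RNA per cell cannot be told apart. The labels state neither the genotype of the lines nor the allele on which tamoxifen acts, and every line is 1 culture per treatment, so the 3 lines are the replicates and effects of the drug other than through p53 cannot be told apart from those of p53.

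In the mitochondrial route to apoptosis, cytochrome c leaves the mitochondria and binds APAF1, which assembles into the apoptosome and activates the initiator caspase-9. Caspase-9 then cleaves effector caspases, XIAP blocks caspase-9 and some of the effector caspases, and caspase-2 is an initiator with a platform of its own, the PIDDosome. AEN, EI24 and PERP are products of p53-induced genes and act beside this cascade: AEN is a nuclease that degrades DNA, EI24 a membrane protein of the endoplasmic reticulum, and PERP a tetraspan protein of the plasma membrane and desmosomes.

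With tamoxifen, Apaf1, Aen, Ei24 and Perp rose, by 3.19-fold, 3.11-fold, 2.46-fold and 1.73-fold. Casp2 fell to a level 1.58-fold lower. Casp6, Casp9 and Xiap did not pass the threshold, an adjusted p of 0.05 in limma. Thus 5 of 8 genes were called, against 19.5% of all 7644 genes tested. Of the 8, 4 were higher and 1 was lower, against 10.5% and 8.94% of all genes. The median change of the 8 genes was 0.66 on the log2 scale, against 0.0019 for all genes tested. The direction was the same in each line for 6 of the 8, as for 51.7% of all genes. The calls rest on comparing the arrays of a line with each other: without a term for cell line, 0 of the 8 genes were called, and 23 of all genes.

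**Figure D1:**
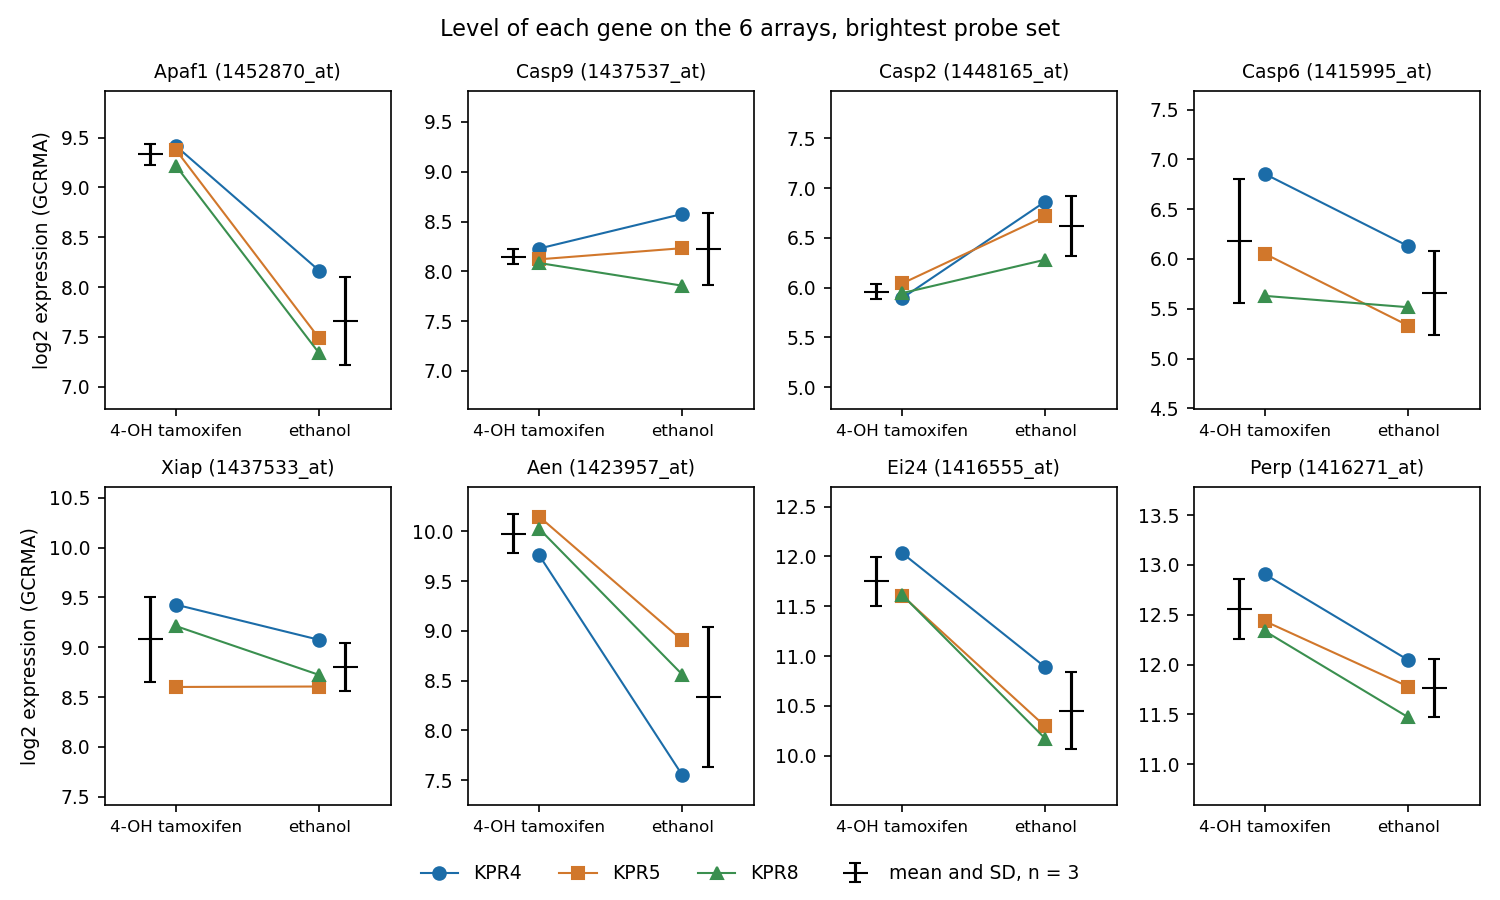
Levels of the 8 genes on the log2 scale (GCRMA values, brightest probe set of each gene, named in the panel title) with 4-OH tamoxifen and with ethanol. Each line joins the arrays of 1 cell line, bars are the mean and SD of 3 arrays, and each panel spans the same log2 range. Apaf1, Aen, Ei24 and Perp are higher with tamoxifen in each line, and Casp2 is lower in each line.

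**Figure D2:**
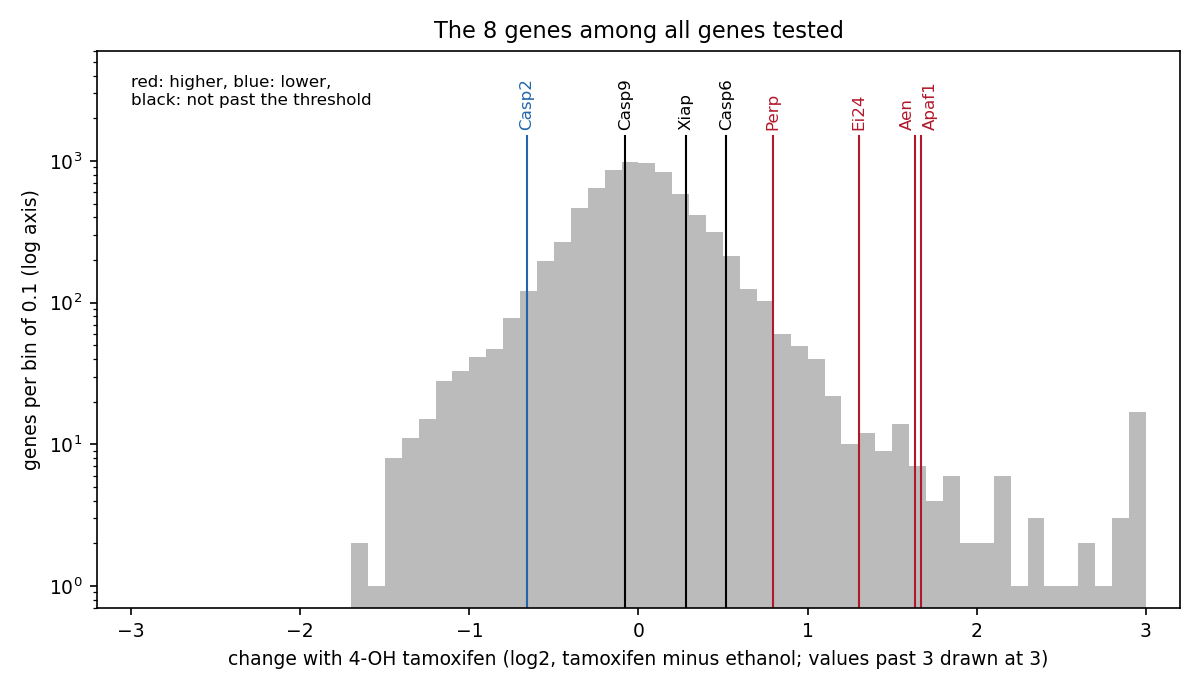
Histogram of the change with tamoxifen (log2, tamoxifen minus ethanol) over the 7644 genes tested, with a log axis for the number of genes and a vertical line at each of the 8 genes. Apaf1 at 1.67 and Aen at 1.64 lie far to the right, and Casp2 at -0.66 is the lowest of the 8.

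The promoters of the 3 genes that rose most are shown because these genes moved together and p53 is a DNA-binding factor. Sequences are those of RefSeq on GRCm38.p6, in the direction of transcription, and run from 250 bases before to 50 bases after the annotated start. Capitals mark matches to the p53 consensus half-site of 10 bases, searched without mismatches. The half-site reads the same on both strands. The Aen promoter (chr7:78895677-78895976, plus strand) held 1 match, GGGCTTGTCC, from base 11 to base 20 after the start. The Ei24 promoter (chr9:36797285-36797584, minus strand) held 1 match, GGGCATGCCC, from base -10 to base -1. The Apaf1 promoter (chr10:91082694-91082993, minus strand) held none.
Aen: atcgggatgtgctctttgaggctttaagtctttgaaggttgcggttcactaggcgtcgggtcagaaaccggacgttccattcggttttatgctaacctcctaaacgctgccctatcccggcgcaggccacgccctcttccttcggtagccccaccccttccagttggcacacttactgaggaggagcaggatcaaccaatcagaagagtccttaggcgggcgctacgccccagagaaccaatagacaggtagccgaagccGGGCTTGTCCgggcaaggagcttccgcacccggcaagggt
Ei24: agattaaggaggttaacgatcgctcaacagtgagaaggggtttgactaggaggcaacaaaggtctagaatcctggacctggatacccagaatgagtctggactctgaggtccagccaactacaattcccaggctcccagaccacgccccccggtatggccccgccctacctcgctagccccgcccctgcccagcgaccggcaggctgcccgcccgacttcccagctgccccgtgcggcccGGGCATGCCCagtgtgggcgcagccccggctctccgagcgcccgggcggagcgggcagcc
Apaf1: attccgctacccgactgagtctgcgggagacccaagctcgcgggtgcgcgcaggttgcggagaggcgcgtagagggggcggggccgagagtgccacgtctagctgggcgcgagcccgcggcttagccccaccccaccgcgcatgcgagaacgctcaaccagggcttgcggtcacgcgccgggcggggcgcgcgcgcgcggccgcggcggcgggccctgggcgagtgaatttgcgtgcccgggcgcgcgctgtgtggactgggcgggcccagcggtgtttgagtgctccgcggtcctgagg

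Of the 8 genes, 7 have promoters in the RefSeq table, all but Perp, with 10 windows in all. A half-site stood in 3 of these windows, from 2 genes, and the second Aen window overlaps the first and holds the same match. A half-site is held by 8.36% of all 32851 listed promoters. The windows of Casp2, Casp6, Casp9 and Xiap held no match. A match in these letters is a description of the sequence and was not tested for binding.

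Apaf1 (chromosome 10, 90989311 to 91082743 on GRCm38.p6) encodes the scaffold on which caspase-9 is activated. Its brightest probe set read 9.41, 9.37 and 9.21 with tamoxifen in KPR4, KPR5 and KPR8, against 8.16, 7.48 and 7.33 with ethanol. The groups did not overlap, and the 3 lines lay closer together with the drug than without it: the mean was 9.33 ± 0.11 with tamoxifen and 7.66 ± 0.44 with ethanol (SD, n = 3 each). The change was 1.67 ± 0.16 on the log2 scale (SE, limma, adjusted p = 7.49e-06), and it ranked 50 among 7644 genes by size of rise. KPR4, the line with the highest ethanol level, had the smallest change, 1.25, against 1.89 in KPR5 and 1.88 in KPR8. A dim second probe set of Apaf1 moved the same way, at 3.83, 3.71 and 3.97 with tamoxifen and 3.47, 3.10 and 2.85 with ethanol. It lay below the filter of log2 4 and not far above the bacterial control probes, whose highest value was 2.84.

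Casp9 (chromosome 4, 141793612 to 141815978), the initiator caspase that APAF1 activates, gave no call. It read 8.23, 8.12 and 8.08 with tamoxifen in KPR4, KPR5 and KPR8, against 8.58, 8.23 and 7.86 with ethanol. The groups overlapped, and the change ran downward in KPR4 and KPR5 and upward in KPR8. The mean change was -0.08 ± 0.16 (SE, adjusted p = 0.789), with a 95% interval from -0.42 to 0.27, which leaves out a change the size of that of Apaf1. A second Casp9 probe set stayed between 3.48 and 3.76 on the 6 arrays, below the filter.

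Casp2 (chromosome 6, 42264902 to 42282508), the initiator caspase of the PIDDosome, fell. Its single probe set read 5.89, 6.04 and 5.94 with tamoxifen in KPR4, KPR5 and KPR8, against 6.86, 6.72 and 6.28 with ethanol. The groups did not overlap, and the 3 treated arrays differed by less than the 3 control arrays, with means of 5.96 ± 0.07 with tamoxifen and 6.62 ± 0.30 with ethanol (SD, n = 3 each). The change was -0.66 ± 0.18 (SE, adjusted p = 0.0168), made up of -0.97 in KPR4, -0.67 in KPR5 and -0.34 in KPR8. The call depends on both KPR4 and KPR5. Without KPR4 the change was -0.50 (adjusted p = 0.174), and without KPR5 it was -0.65 (adjusted p = 0.0639).

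Casp6 (chromosome 3, 129901415 to 129914112) encodes an effector caspase that cleaves lamins. It read 6.85, 6.05 and 5.63 with tamoxifen in KPR4, KPR5 and KPR8, against 6.13, 5.33 and 5.52 with ethanol. The groups overlapped, although each line was higher with the drug, KPR8 barely so. The changes were 0.72 in KPR4, 0.72 in KPR5 and 0.11 in KPR8, with a mean of 0.52 ± 0.18 (SE, adjusted p = 0.0552, 95% interval 0.14 to 0.90). Casp6 sat at the threshold: it passed without KPR8 (0.72, adjusted p = 0.0388), and had 0.42 without KPR4 (adjusted p = 0.277) and 0.42 without KPR5 (adjusted p = 0.242). It also passed when a stricter filter was set (adjusted p = 0.0487), when all probe sets of each gene were averaged (0.0473) and after quantile normalization (0.0486), and not when the filter was dropped (0.084).

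Xiap (chromosome X, 42059613 to 42109664), the inhibitor that binds caspases directly, had 6 probe sets, of which 3 passed the filter. The brightest read 9.43, 8.60 and 9.21 with tamoxifen in KPR4, KPR5 and KPR8, against 9.07, 8.61 and 8.72 with ethanol. KPR5 was level between treatments and the groups overlapped, with a mean change of 0.28 ± 0.15 (SE, adjusted p = 0.207, 95% interval -0.04 to 0.60). The next 2 probe sets gave 0.06 ± 0.17 and -0.03 ± 0.22, with adjusted p = 0.864 and 0.938 in the limma fit over all 12013 named probe sets past the filter. All 3 had KPR4 as the line with the highest mean. In that fit 8.26% of all probe sets were higher and 7.68% lower. The remaining 3 probe sets, below the filter, did not exceed 3.35, and one of them stayed at or under the bacterial controls on each array. Another was higher in each line, by 0.51, 0.02 and 0.46 for KPR4, KPR5 and KPR8, with groups that did not overlap (adjusted p = 0.143 in the limma fit without a filter).

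**Figure D3:**
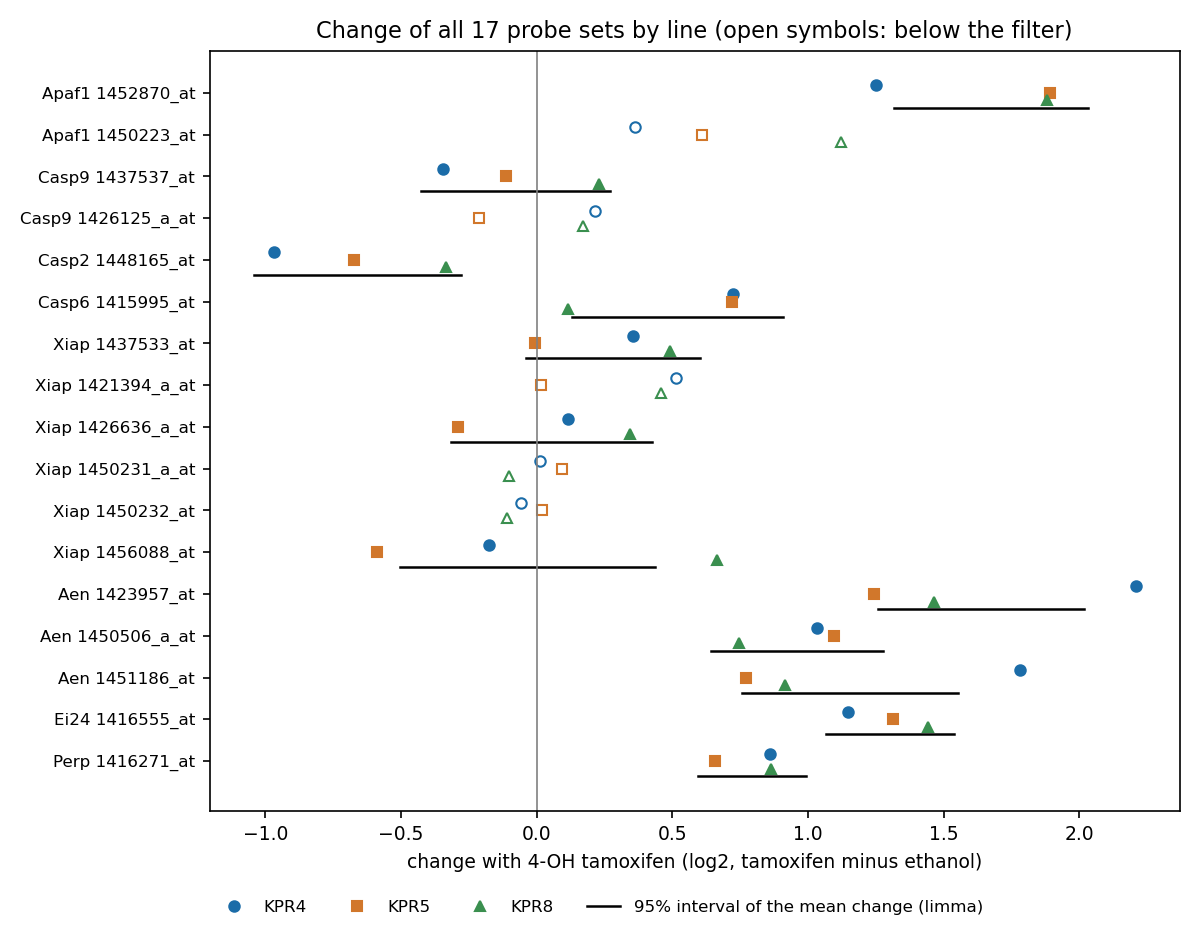
Change with tamoxifen (log2, tamoxifen minus ethanol) of all 17 probe sets of the 8 genes, with 1 symbol per cell line and, for the 12 probe sets past the filter, the 95% interval of the mean from the limma fit over probe sets. The 3 Aen probe sets lie to the right of 0 in each line, and most Xiap and Casp9 probe sets have lines on both sides of 0.

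Aen (chromosome 7, 78895927 to 78911209), the nuclease gene, rose on its brightest probe set, the only one of 3 that reached the filter under both treatments. It read 9.76, 10.15 and 10.02 with tamoxifen in KPR4, KPR5 and KPR8, against 7.55, 8.91 and 8.56 with ethanol. The groups did not overlap, and the control arrays were spread more widely, with means of 9.98 ± 0.20 with tamoxifen and 8.34 ± 0.70 with ethanol (SD, n = 3 each). The change was 1.64 ± 0.17 (SE, adjusted p = 1.38e-05). It was 2.21 in KPR4, where the ethanol level was lowest, 1.24 in KPR5 and 1.46 in KPR8. Both dimmer probe sets reached the filter only on the 3 tamoxifen arrays, so a difference followed from the filter and their calls are not counted. In the limma fit without a filter their changes were 0.96 ± 0.14 and 1.15 ± 0.18 (SE, adjusted p = 0.00152 and 0.00253).

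Ei24 (chromosome 9, 36779153 to 36797334) had the smallest adjusted p of the 8 genes. It read 12.03, 11.61 and 11.61 with tamoxifen in KPR4, KPR5 and KPR8, against 10.89, 10.29 and 10.17 with ethanol. The groups did not overlap and the lines kept KPR4 on top under both treatments. The change was 1.30 ± 0.11 (SE, adjusted p = 1.59e-06), with 1.15 for KPR4, 1.31 for KPR5 and 1.44 for KPR8.

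Perp (chromosome 10, 18845071 to 18857073), needed for desmosomes in epithelia, read 12.91, 12.43 and 12.33 with tamoxifen in KPR4, KPR5 and KPR8, against 12.05, 11.78 and 11.47 with ethanol. The groups did not overlap, but the lowest treated array lay close to the highest control array. The change was the smallest and the most even of the 4 rises, 0.79 ± 0.09 (SE, adjusted p = 3.93e-05), with 0.86 in KPR4, 0.66 in KPR5 and 0.86 in KPR8. The Perp probe set was bright under both treatments, and saturation was not examined.

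Counted over the brightest probe sets, 4 of the 8 genes had all tamoxifen arrays above all ethanol arrays and 1 had them all below. Of all genes tested, 7.48% had the groups apart upward and 8.2% downward. The SD over the 3 lines was smaller with tamoxifen than with ethanol for 5 of the 8 genes, and for 44.7% of all genes.

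The lines themselves differed in 5 of the 8 genes in limma's F-test, where 42% of all genes differed. KPR4 had the highest mean of both treatments for 7 of the 8, and for 34.4% of all genes. For Casp6 the line means were 6.49 in KPR4, 5.69 in KPR5 and 5.57 in KPR8 (adjusted p = 0.00709). In the same order of lines, Ei24 had 11.46, 10.95 and 10.89 (adjusted p = 0.00618) and Perp 12.48, 12.11 and 11.90 (adjusted p = 0.00355). In each of these 3 genes KPR4 stood above the other lines, which did not pass the test against each other when KPR4 was left out (adjusted p = 0.777 for Casp6, 0.855 for Ei24 and 0.362 for Perp). Xiap had 9.25, 8.60 and 8.97 (adjusted p = 0.0282), with KPR5 lowest. Aen ran the other way, with KPR4 lowest at 8.66, against 9.53 in KPR5 and 9.29 in KPR8 (adjusted p = 0.0104). Of the dimmer Aen probe sets, 1 had the same order of line means, 3.83 in KPR4, 4.03 in KPR5 and 3.89 in KPR8. The other had KPR4 highest, at 4.26, against 4.16 in KPR5 and 4.13 in KPR8. On both, KPR4 was the highest line with tamoxifen, and the lines did not pass the F-test (adjusted p = 0.731 and 0.806, in that order). For Apaf1, Casp9 and Casp2 the lines did not pass the test (adjusted p = 0.108, 0.191 and 0.474), and Casp2 had 6.38 in both KPR4 and KPR5. With 1 array per line and treatment, a difference of the response between lines could not be tested.

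**Figure D4:**
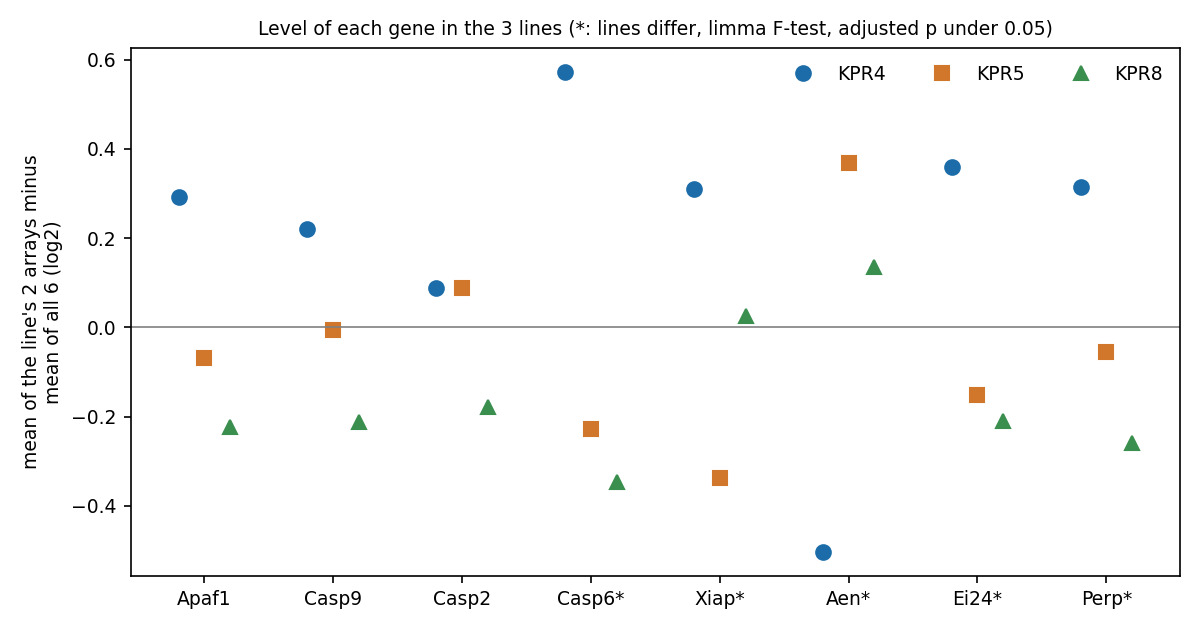
Mean of each line's 2 arrays minus the mean of all 6 arrays (log2) for the brightest probe set of each gene. KPR4 is the highest line for Casp6, Ei24, Perp and Xiap and the lowest for Aen, and an asterisk marks the 5 genes whose lines differ.

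Of 11 tested genes for parts of the apoptosome and its mitochondrial triggers, Apaf1 and Casp9 included, 2 were higher and 3 lower, with a median change of -0.30. Without Apaf1 and Casp9, 1 of 9 was higher, close to the 10.5% of all genes, and 3 were lower, against 8.94% of all genes. Cycs, encoding cytochrome c, rose by 0.42 ± 0.13 (SE, adjusted p = 0.0356) on its brightest probe set, but other Cycs probe sets gave -0.21 and 0.11. Its call ended without KPR4 (0.23, adjusted p = 0.404) and without KPR8 (0.41, adjusted p = 0.161). It also ended when no filter was used (adjusted p = 0.0653), when probe sets were averaged (0.10, adjusted p = 0.593) and when variances were moderated without a trend (adjusted p = 0.111). Cse1l and Anp32a, which encode proteins that promote apoptosome assembly, fell by 0.73 and 0.69 on the log2 scale (adjusted p = 0.00217 and 0.00405). Htra2, a mitochondrial protease that antagonises XIAP once released, fell by 0.55 (adjusted p = 0.00772), though without KPR4 the call ended (-0.47, adjusted p = 0.0975). The other Htra2 probe set gave -0.83 (adjusted p = 0.00353 in the limma fit over probe sets). Diablo, encoding the other released XIAP antagonist, had -0.15 ± 0.17, Apip -0.32 ± 0.17, Aifm1 -0.30 ± 0.14, Endog -0.51 ± 0.19 and the chaperone gene Hspa8 0.07 ± 0.08, none past the threshold. Endog was called without KPR5 (-0.73, adjusted p = 0.0307) and had -0.23 without KPR8.

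Among 4 caspase genes tested, 0 were higher and 1, Casp2, was lower in limma, against 10.5% and 8.94% of all genes. Casp8, the initiator of death receptor signalling, had 0.00 ± 0.15 (SE, adjusted p = 0.994). Casp1, Casp4, Casp12 and Casp14 were below the filter, with no array above 3.58. Both partners of caspase-2 in the PIDDosome, Pidd1 and Cradd, were below the filter as well. The Pidd1 probe set, for the p53-induced scaffold of that complex, had a mean of 4.03 with tamoxifen and 3.21 with ethanol. Its change in the limma fit without a filter was 0.83 ± 0.17 (adjusted p = 0.00666), with 1.38 in KPR4, 0.48 in KPR5 and 0.62 in KPR8, opposite in sign to that of Casp2 in each line. Cradd, the adaptor, had 0.13 ± 0.12 (adjusted p = 0.590).

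Of 7 tested genes for inhibitors of apoptosis and their antagonists, 0 were higher and 2 lower, against 10.5% and 8.94% of all genes. Birc5, which encodes survivin, a protein of the mitotic chromosomal passenger complex as well as an IAP, fell by 0.73 on the log2 scale (adjusted p = 0.000371), and Htra2 was the other. Birc2, Birc3 and Birc6 had 0.39 ± 0.18, 0.12 ± 0.15 and 0.30 ± 0.16, and did not pass, although Birc6 did without KPR5 (0.57, adjusted p = 0.0228). Naip2, Naip5 and Septin4 were below the filter, with no array above 3.59.

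Of 14 caspase substrates tested, 1 was higher and 4 lower, against 10.5% and 8.94% of all genes, with a median change of -0.01. The other 9 were not called. Gsn, encoding the actin-severing protein gelsolin, rose by 0.60 ± 0.11 (SE, adjusted p = 0.00122). The B-type lamin genes Lmnb2 and Lmnb1, whose products line the nuclear envelope, changed by -1.01 ± 0.17 and -0.86 ± 0.12 (adjusted p = 0.000756 and 0.000208). Lmna, the A-type lamin gene, had 0.29 ± 0.13 (adjusted p = 0.128), and passed without KPR8 (0.45, adjusted p = 0.0405). Parp1 and Parp2, DNA break sensors, changed by -0.37 ± 0.12 and -0.57 ± 0.19 (adjusted p = 0.0349 and 0.0451). Both calls ended without KPR4 (adjusted p = 0.171 and 0.0794), without KPR8 (0.120 and 0.270) and without the filter (0.0581 and 0.0746). That of Parp1 also ended without KPR5 (0.0538) and without the variance trend (0.0932). The other Parp1 probe sets gave -0.97 and -0.93 (adjusted p = 0.00243 and 0.00398 in the limma fit over probe sets).

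Among 8 tested nuclease genes, 2 were called higher, Aen and Dffb, and 1 lower, Fen1, against 10.5% and 8.94% of all genes. Dffb encodes the caspase-activated DNase. It was dim, with an average of 4.70 with tamoxifen and 3.83 with ethanol. It passed the filter of log2 4 through the tamoxifen arrays, so a difference in part followed from the filter. The change was 0.87 ± 0.17 (SE, limma, adjusted p = 0.00191, or 0.00429 without the filter). Dffa, which encodes the inhibitor and chaperone of that DNase, had -0.04 ± 0.15. Fen1, a replication and repair nuclease, changed by -0.86 ± 0.13 (adjusted p = 0.000259). Isg20 and Rexo4, relatives of Aen by their exonuclease domain, had -0.34 ± 0.17 and 0.01 ± 0.14. The DNase genes Dnase1l1 and Dnase2a had 0.34 ± 0.14 and 0.10 ± 0.16, and none of these 4 passed. Dnase1l3 was below the filter, with no array above 2.96.

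The tetraspan family of Perp had 1 of 6 tested members higher, Perp itself, and 0 lower, against 10.5% and 8.94% of all genes. Emp1, Emp2, Emp3, Pmp22 and Tmem47 had changes between -0.05 and 0.26, with the smallest adjusted p, 0.149, for Emp1. Emp1 passed without KPR8 (0.42, adjusted p = 0.0342).

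The genes listed as p53-induced effectors outside the caspase cascade were mostly higher. Of 8 tested genes 7 were higher and 0 lower, against 10.5% and 8.94% of all genes, with a median change of 1.36. Beside Aen, Ei24 and Perp, Pdrg1 rose by 1.42 ± 0.16 and Siva1, a death domain adaptor, by 0.97 ± 0.15 (SE, adjusted p = 2.84e-05 and 0.000377), and the other probe sets of Pdrg1 and Siva1 past the filter had changes between 0.70 and 1.45. Zmat3 and Trp53inp1, known p53 targets, were the largest of the group on their brightest probe sets, at 3.14 ± 0.16 and 4.09 ± 0.24. The other Trp53inp1 probe set had a smaller rise, 2.27 ± 0.25. Litaf had 0.17 ± 0.11 (adjusted p = 0.318). Trp53i13, Steap3 and Prodh, which encodes proline dehydrogenase, were below the filter. Prodh passed it without KPR4, and was then lower with tamoxifen (-0.58, adjusted p = 0.0386). It passed through the ethanol arrays, so a fall in part followed from the filter. With all lines and no filter, Prodh had -0.34 (adjusted p = 0.266 in limma). The list was put together for links to p53, so its direction is not independent evidence. Whether p53 induces each listed gene, Pdrg1 among them, was not examined.

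**Figure D5:**
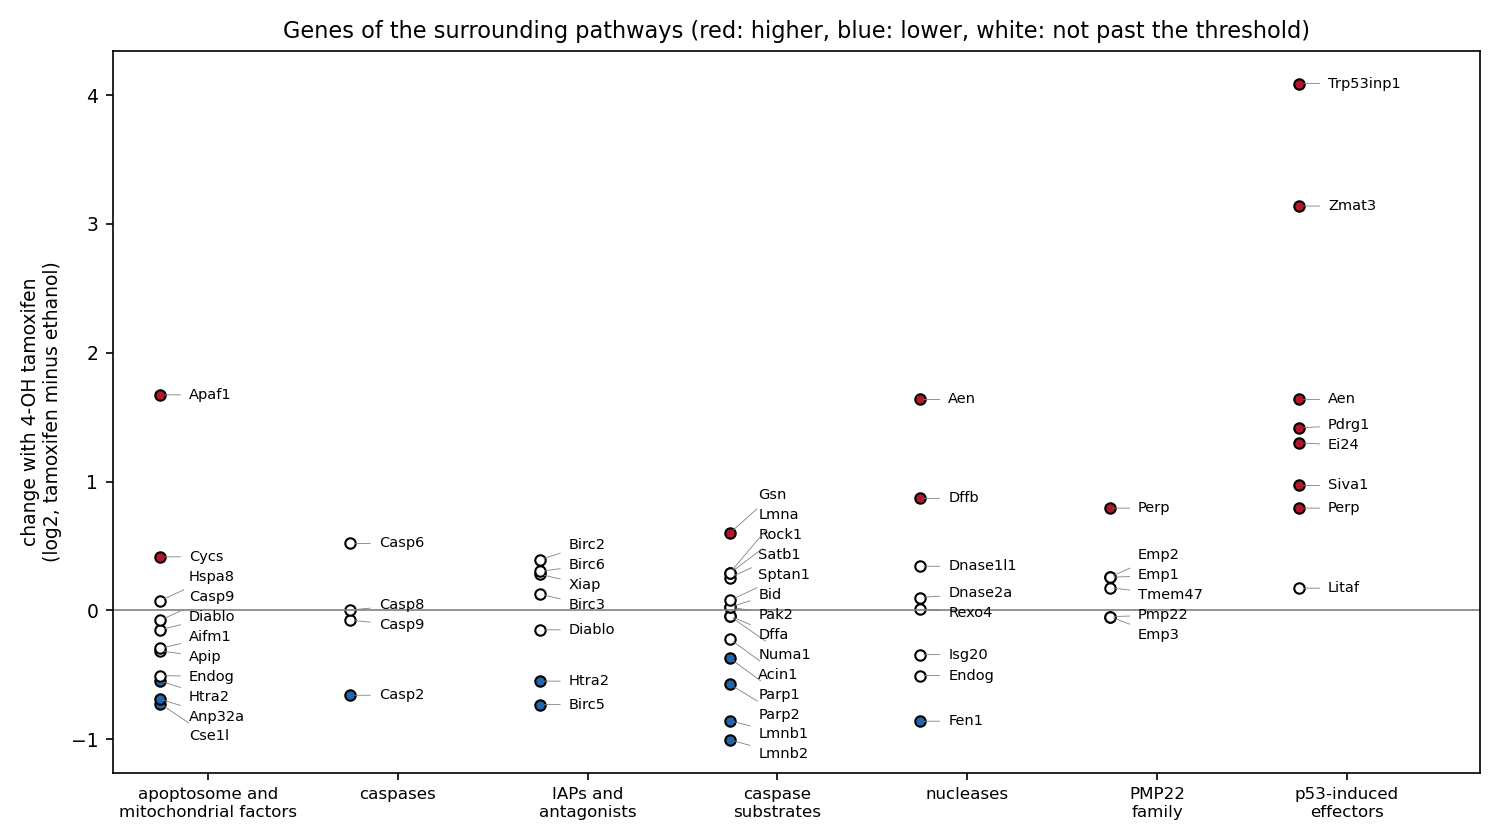
Change with tamoxifen (log2, tamoxifen minus ethanol) of each tested gene in 7 groups around the 8 genes, from the limma fit. The genes listed as p53-induced effectors lie above 0, with 7 of 8 past the threshold, and the other groups have genes on both sides of 0.

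For each of the 5 called genes, the 2 other genes with the highest Pearson's r over the 6 arrays were sought among 2900 or 2901 genes with a range of log2 1 or more. The points are 3 pairs of arrays of the same lines, so r reflects treatment and line together. Apaf1 was closest to Exoc4 (r = 0.994) and Susd6 (0.992), whose changes were 2.07 and 1.76. Ei24 was closest to Pqlc3 (0.998) and Abhd4 (0.994), which rose more than it did, by 2.98 and 3.10. Perp was closest to Psrc1 (0.989) and Stap2 (0.988), Aen to Tti2 (0.989) and Eps8l2 (0.983), and Casp2 to Knstrn (0.983) and Defa3 (0.975). As many as 48 genes exceeded an r of 0.95 with Ei24, against 8 with Casp2.

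The cells expressed epithelial genes: Krt8 lay between 12.09 and 12.40 and Krt18 between 12.93 and 13.50 on the 6 arrays. Of 6 epithelial markers tested, 1 was higher and 1 lower, against 10.5% and 8.94% of all genes. Cdh1 changed by 0.30 and Epcam by -0.37 (adjusted p = 0.046 and 0.0462 in limma). Both calls ended without the filter (adjusted p = 0.0674 and 0.077). Of 7 lung lineage markers, 4 were at or under the bacterial controls on each array, Nkx2-1 among them at 2.40 to 2.83. Aqp5 lay between 7.23 and 10.11 and Abca3 between 6.89 and 8.32. Of 7 leukocyte markers with a probe set, 3 were tested. Cd68, which was dim, averaged 4.63 with tamoxifen and 3.61 with ethanol and passed the filter through the tamoxifen arrays. A difference in part followed from the filter. It was called higher, by 1.02 (limma, adjusted p = 2e-04, or 0.000467 without the filter). Cd14 was not dim, between 6.42 and 9.23, and Cd3e lay between 3.53 and 4.37. Neither changed past the threshold (adjusted p = 0.380 and 0.566 in limma). Ptprc and Itgam were at background. The summed linear level of that list ran from 152 to 669 with tamoxifen and from 138 to 569 with ethanol. For fibroblast markers it ran from 136 to 314 with tamoxifen and from 152 to 271 with ethanol, and for endothelial markers from 41.9 to 47.8 with tamoxifen and from 43.7 to 49.9 with ethanol. The 3'-minus-5' signal of Gapdh, a measure of RNA integrity, was 0.24 higher with tamoxifen in KPR4 and 0.29 higher in KPR5, and in KPR8 the change was -0.40, and for Actb the changes were 0.16, 0.39 and -0.07. The part of these values in the changes above was not tested.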

How the data were processed

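Expression was measured on 6 arrays, 1 per line (KPR4, KPR5, KPR8) and treatment. The authors deposited log2 values, computed with GCRMA (version 2.20.0, R version 2.11.0, from the submitters' processing notes). GCRMA models background from probe sequence and normalizes between arrays, so a change shared by most genes would be hidden. The notes do not say which arrays were normalized together. Array medians lay between 4.56 and 4.63, and 57.2% to 57.6% of probe sets reached log2 4. The number of arrays limits the precision.

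Of 22690 probe sets, 64 are controls, 20380 carry 1 gene symbol and 691 several, and 1555 others have none. Of those with 1 symbol, 20351 matched GRCm38.p6 by Entrez identifier, which changed 0 symbols. The 27 Bacillus subtilis control probe sets lay between 1.13 and 2.84 and mark background. A probe set passed the filter with log2 4 or more on 3 or more arrays, and the brightest one stood for its gene. Of the 17 probe sets of the 8 genes 12 passed.

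Changes were fitted with limma 3.58.1 in R 4.3.3, with terms for cell line and treatment and variances moderated with an intensity trend, on the whole table of 7644 genes. Adjusted p-values follow Benjamini and Hochberg over the whole table. A fit over the 12013 named probe sets past the filter served the other probe sets, and an F-test of the line term the differences between lines. Residual degrees of freedom were 2 per gene, with 12.85 added by moderation, so errors lean on other genes. The fit was tested on simulated data. Both treatments were given to the same lines, which pairs the arrays: deviations from the group means correlated within a line at 0.876, 0.737 and 0.761 across genes. The p-values set each change against how unevenly it ran over these 3 lines, with the variance moderated by other genes.

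The 8 genes and the gene lists were chosen with earlier results of these data known. All 8 genes are named, and every measured gene of each list described, or the called genes where over 12 were measured. For each called gene, the 2 genes with the highest r are named. Lmna, Dffa and single marker genes were named after their values were seen. Alternatives left out the line term, the filter or a line, and changed the filter, probe set summary, normalization and moderation. With a line left out, the filter asked for 2 of 4 arrays.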

Additional observations from a re-analysis of the deposited data

Results flagged for a closer look

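Values were looked at again where lines moved in opposite directions or where a probe set outside the tests moved with treatment. The brightest Casp9 probe set had changes of -0.35 in KPR4, -0.11 in KPR5 and 0.23 in KPR8, a spread of 0.575. All 3 Xiap probe sets past the filter also had lines on both sides of 0. The brightest spread over 0.495, with KPR5 just under 0. The others spread over 0.634 (0.11 in KPR4, -0.29 in KPR5, 0.34 in KPR8) and over 1.25 (-0.18, -0.59 and 0.66 in the same order). On all 3, KPR5 had the lowest change and KPR8 the highest. These differences between lines were not tested, since each line has 1 array per treatment. The dim Apaf1 probe set, below the filter, changed by 0.697 in the limma fit of all probe sets without a filter (adjusted p = 0.0141), upward in each line.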

How the results depend on the processing

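Without the replicate block, that is without a term for line, the 5 called genes kept their changes and lost their calls: Apaf1 1.67 (adjusted p = 0.0603), Casp2 -0.66 (0.368), Aen 1.64 (0.133), Ei24 1.30 (0.0866) and Perp 0.79 (0.205). Then 22 of all genes were higher and 1 lower, 0 of the 8 genes were higher and 0 lower, and 778 of all genes had an unadjusted p under 0.05 in limma. Of the lists, the apoptosome, substrate and nuclease lists had 0 higher and 0 lower, the caspase, PIDDosome and inhibitor lists 0 lower, the tetraspan family 0 higher and the p53-induced effectors 2 higher.

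With a line left out, Casp2 ranged from -0.82 to -0.50 and Casp6 from 0.42 to 0.72, with 4 to 5 of the 8 genes higher and 0 to 1 lower. Casp6 was past the threshold at 0.52 with the stricter filter, 0.52 with averaged probe sets and 0.53 with quantile normalization. Of all genes 526 to 600 were higher and 413 to 444 lower with a line left out. The range between lines ran from 0.12 to 0.92 for Casp6, 0.23 to 0.87 for Aen, 0.058 to 0.57 for Ei24, 0.20 to 0.57 for Perp and 0.28 to 0.65 for Xiap, each called only with KPR4 included, and Xiap not without KPR5 either (adjusted p = 0.231). Without the variance trend that of Perp, 0.57, missed the threshold (adjusted p = 0.0508).

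List counts moved as follows. In the apoptosome list 1 gene was higher without the filter, with averaged probe sets and without the trend, and 1 to 2 were higher and 2 to 4 lower with a line left out. The caspases had 1 higher with the stricter filter, averaged probe sets and quantile normalization, and 0 to 1 higher and 0 to 1 lower with a line left out. The PIDDosome had 1 higher, Pidd1, without the filter and 0 to 1 lower with a line left out. With a line left out the inhibitors had 0 to 1 higher and 1 to 2 lower, the substrates 1 to 2 higher and 2 to 3 lower, the nucleases 1 to 2 lower, the tetraspan family 1 to 2 higher and the p53-induced effectors 0 to 1 lower. The substrates had 2 lower without the filter, and the nucleases 1 higher with the stricter one. Casp9, never called, was -0.08 with all lines and 0.058 without KPR4. With 1 value per gene, no other change of the 8 genes turned its sign in these settings. Both dimmer Xiap probe sets past the filter, never called, did so. One went from 0.056 to -0.088 without KPR8. The other went from -0.035 to 0.037 without KPR4 and to 0.243 without KPR5. The cause of these shifts was not tested. Each line has 1 array per treatment, so 2 residual degrees of freedom, or 1 with a line left out, stand behind each error.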
